A study of Rattus norvegicus with 31 samples.

Results

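The response of white fat (white adipose tissue, WAT) and of brown fat (BAT) to the dietary carbohydrate to fat ratio was compared within the same 9 rats. The measurements were 18 of the 31 arrays of the series. All animals were male Wistar rats that arrived at 3 weeks of age and had no genetic modification in the labels. The 5 L rats (L1 to L5) ate freely for 9 weeks a diet with 65% of its energy from carbohydrate and 15% from fat. The 4 H rats (H12, H13, H15 and H16) were held for 9 weeks to the mean intake of the L rats, on a diet with 35% of its energy from carbohydrate and 45% from fat, the added fat being soybean oil. Food was withdrawn from both groups 17 h before dissection, so that both depots were sampled in the fasted state. The anatomical site of the white depot was not given in the sources used here. Each array held RNA from 1 depot of 1 rat. The probe sets compared were those that varied in WAT (range over 0.01 on the log2 scale across the 9 arrays) and were over 3.3 on at least 4 of the 9 BAT arrays. These were 3819 of 31042 probe sets that were not Affymetrix controls, and 3686 of them were over 3.3 on all 9 BAT arrays. They stood for 2660 genes, counting those with 1 gene symbol. The WAT limit set the lower edge, since 5007 probe sets passed it, and the member with the smallest range had 0.0101 against 0.00999 for the widest probe set left out. The BAT values had been computed with GCRMA and the WAT values with qFARMS, so directions and ranks were compared between the depots. Log2 differences of the depots are given side by side, but they are not on a common scale. Tests across the depots, list medians and figures in other units have their scale named beside them. All levels below are log2 values of 1 probe set, and a difference is the mean of the H rats minus the mean of the L rats.

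White adipose tissue stores triacylglycerol and releases fatty acids in the fasted state, while brown adipose tissue burns them in mitochondria that carry the uncoupling protein Ucp1. Both depots can also make fatty acids from carbohydrate. In that pathway Acly cuts citrate to acetyl-CoA, Acaca carboxylates it, Fasn builds palmitate, Elovl6 lengthens it and Scd inserts the first double bond, with Me1 supplying NADPH. Cholesterol is made from the same acetyl-CoA by the mevalonate and sterol pathway, whose genes are switched on together when membranes are short of sterol. Insig1 holds the transcription factors of that switch in the endoplasmic reticulum.

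The depot labels were checked against defining genes. Ucp1 lay between 14.4 and 14.9 in BAT of all rats and held 1 value, 6.46, on every WAT array. Other brown fat markers were less clear. Cidea read 14.50 to 14.79 in BAT and also 10.13 to 11.67 in WAT. Dio2, Ppargc1a, Prdm16 and Cox7a1 were over 3.3 on 8 or 9 BAT arrays and held 1 value in WAT. Zic1 and Elovl3 read 2.29 to 2.32 in BAT and held 1 value in WAT. The adipocyte hormone Adipoq lay between 13.06 and 13.80 on all 18 arrays. Skeletal muscle markers were detected in BAT of 2 H rats. Of 19 skeletal muscle markers on the array, 10 were over 3.3 in BAT of both H13 and H15, and 7 of these were over 3.3 in no other rat. The skeletal actin Acta1 read 7.55 in H13 and 9.13 in H15 and stayed at the floor of 2.29 in the other 7 rats. The summed linear level of 18 of the markers was 974 in H13 and 1820 in H15 and 181 to 296 in the other 7 rats (Myh1, over 13.3 in BAT of every rat, was left out of the sum after its values were seen). With Myh1 the sum was 15688 in H13, 14886 in H15 and 10469 to 15315 in the other 7 rats. In WAT, 17 of the 19 markers held 1 value on all arrays. Results that could move with H13 and H15 are given below with and without them. In bulk tissue, fewer cells of a type and less RNA per cell cannot be told apart.

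Promoter sequences of 4 genes with motif matches are shown: Cish and Pnpla3 were lower on the H diet in both depots, and Nsdhl and Insig1 belong to the sterol genes that were lower in BAT. They are the 250 bases before the RefSeq start of each gene on the GRCr8 assembly, written along the gene's strand. Capitals mark matches on either strand to TTCNNNGAA (the core that STAT factors bind), CCAAT (the box that NF-Y binds) and CACGTG (an E-box).
Cish (chr8:116850719-116850968, plus strand): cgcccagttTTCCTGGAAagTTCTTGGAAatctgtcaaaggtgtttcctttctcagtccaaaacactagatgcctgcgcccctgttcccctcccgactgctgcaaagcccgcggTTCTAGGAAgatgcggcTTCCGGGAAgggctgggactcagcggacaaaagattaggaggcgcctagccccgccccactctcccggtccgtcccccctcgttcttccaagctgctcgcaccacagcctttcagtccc
Pnpla3 (chr7:117173278-117173527, plus strand): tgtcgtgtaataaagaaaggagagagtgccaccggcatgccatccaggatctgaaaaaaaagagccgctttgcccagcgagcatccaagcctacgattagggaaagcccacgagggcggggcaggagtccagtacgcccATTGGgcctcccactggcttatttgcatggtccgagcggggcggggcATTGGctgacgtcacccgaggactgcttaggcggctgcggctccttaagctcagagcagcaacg
Nsdhl (chrX:155817110-155817359, plus strand): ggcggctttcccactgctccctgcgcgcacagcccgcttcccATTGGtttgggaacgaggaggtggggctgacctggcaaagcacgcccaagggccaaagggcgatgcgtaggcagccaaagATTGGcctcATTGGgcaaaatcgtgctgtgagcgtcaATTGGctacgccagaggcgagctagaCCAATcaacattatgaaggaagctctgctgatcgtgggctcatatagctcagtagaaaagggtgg
Insig1 (chr4:8057770-8058019, minus strand): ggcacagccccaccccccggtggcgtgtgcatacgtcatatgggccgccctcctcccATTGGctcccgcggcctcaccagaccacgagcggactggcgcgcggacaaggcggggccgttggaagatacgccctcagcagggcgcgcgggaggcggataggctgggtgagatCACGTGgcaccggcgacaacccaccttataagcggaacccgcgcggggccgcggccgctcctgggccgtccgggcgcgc
The Cish window held 4 TTCNNNGAA matches, a motif (searched after the data were seen) found in 8.87% of 33469 promoters. The shares over all promoters and the list counts below come from longer windows, which also took in bases after the start. The Nsdhl window held 5 CCAAT matches, 4 of them as ATTGG, the Pnpla3 window 2 and the Insig1 window 1 beside 1 CACGTG. The windows of *Scd*, *Cyp51* and *Pxdn*, genes that the results below also turn on, are not shown and held no match to any motif searched. That of *Bcl6*, also not shown, held CCAAT and CACGTG. The CCAAT box was found in 37.5% of all promoters and CACGTG in 6.42%. Matches to the CCAAT box were in 6 of 8 promoters of the fatty acid synthesis genes and 5 of 7 promoters of the cholesterol synthesis genes that had an entry. The sterol response element form TCACNCCAC was in none of these 15 windows and in 1.12% of all promoters, and the direct repeat of the PPAR response element, in its exact form, was in none of them and in 0.0538% of all.

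Few single probe sets passed the test across all members. In WAT, limma called 0 of 3819 members (0.0%) at an adjusted p under 0.05, and 280 (7.33%) had an unadjusted p under 0.05. In BAT it called 2 (0.0524%), *Cyp51* and *Gcat*, both lower in the H rats, and 499 members (13.1%) had an unadjusted p under 0.05. No probe set was therefore called in both depots, and 61 had an unadjusted p under 0.05 with the same sign in both and 12 with opposite signs. Rank products, rerun here on the same members, called 34 members in WAT (0.89%, with 11 higher, 0.288%, and 23 lower, 0.602%) and 93 in BAT (2.44%, with 34 higher, 0.89%, and 59 lower, 1.54%).

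A simpler count needed no scale: the members in which no H rat overlapped any L rat. In WAT this held for 111 members (2.91%), 66 of them higher (1.73%) and 45 lower (1.18%). In BAT it held for 211 (5.53%), 91 higher (2.38%) and 120 lower (3.14%). Without overlap in both depots, 8 were lower in both (0.209%), 0 were higher in both (0.0%) and 2 ran in opposite directions (0.0524%). By sign alone, 22.5% of the members were lower in both depots, 33.1% were higher in both and 44.4% had opposite signs, so that 55.6% shared their direction. Both depots came from the same rats, so the signs were not independent, and the split moved with the scaling: 60.3% of members were higher in WAT and 50.4% in BAT as deposited, and 47.8% and 55.6% after each array was centred on its median.

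Most genes that were lower without overlap in one depot were also lower in the other. Of the 45 members lower without overlap in WAT, 36 (80.0%) were lower in BAT, against 49.6% of all members, and of the 120 lower without overlap in BAT, 78 (65.0%) were lower in WAT, against 39.7% of all. For the higher genes the shares were nearer to those of all members: 39 of 66 (59.1%) that were higher in WAT were higher in BAT, against 50.4%, and 44 of 91 (48.4%) that were higher in BAT were higher in WAT, against 60.3%. Of the 100 members with the lowest difference in each depot, 30 were in both sets (30.0% of each, where 2.62% of all members were in a set). Of the 100 with the highest difference, 17 were in both (17.0%). The lowest of one depot and the highest of the other had 8 in common for WAT low and BAT high and 2 for WAT high and BAT low.

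*Scd*, the stearoyl-CoA desaturase, had the lowest difference of all members in WAT and the tenth lowest in BAT. In WAT its level was 14.27, 14.67, 13.40, 14.91 and 14.51 in L1 to L5 and 10.50, 7.25, 10.58 and 8.90 in H12, H13, H15 and H16. In BAT it was 14.72, 14.80, 14.66, 14.90 and 14.80 in the L rats and 13.81, 13.66, 12.85 and 12.59 in the H rats. The 5 L rats were close together in BAT and spread from 13.40 to 14.91 in WAT, and every H rat was below them in both depots. The difference was -5.05 (SE 0.68, limma adjusted p = 0.226) in WAT and -1.55 (SE 0.24, limma adjusted p = 0.0528) in BAT. A test on the mean of both depots in each rat was added after the data were seen. Each depot was first divided by the median within-diet SD of its members. *Scd* was the only member limma called there (0.0262%, adjusted p = 0.0266). The count of calls ran from 0 to 21 when 1 rat was left out, with 21 without H12.

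*Fasn*, the fatty acid synthase, had rank 2 among the lowest in WAT. Its probe set 1367707_at read 10.71, 11.54, 10.56, 11.66 and 10.85 in WAT of the L rats and 10.25, 8.40, 9.42 and 9.08 in the H rats. Its BAT values were 14.07, 14.31, 13.98, 14.07 and 14.25 against 13.76, 13.35, 13.46 and 12.88. H12 was the H rat nearest to the L rats in both depots, and no H rat reached them. The differences were -1.78 in WAT and -0.77 in BAT, where *Fasn* ranked 85 among the lowest. Its other probe set, 1367708_a_at, gave -1.15 and -0.45, with overlap in BAT. *Acaca*, the acetyl-CoA carboxylase that makes the building block for Fasn, was lower without overlap in both depots at both of its probe sets, by -1.28 in WAT and -0.62 in BAT at 1370893_at and by -0.66 and -1.29 at 1387538_at.

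*Pnpla3*, a lipid droplet protein that acts on triacylglycerol, was lower in both depots at similar ranks, 7 from the bottom in WAT and 9 in BAT. In WAT it read 8.99, 9.61, 9.60, 9.56 and 9.26 in the L rats and 8.71, 8.01, 7.69 and 8.02 in the H rats. BAT levels were 8.49, 9.89, 8.75, 9.48 and 9.92 against 8.38, 8.05, 7.62 and 6.97. The gap in BAT was narrow, 8.49 in L1 against 8.38 in H12. The differences were -1.30 in WAT and -1.55 in BAT, and another probe set gave -1.06 and -1.44, with overlap in BAT.

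*Cish*, an inhibitor of cytokine and growth hormone signalling that STAT5 induces, was the fifth lowest member in WAT and the twelfth lowest in BAT. In WAT probe set 1388233_at read 8.56, 8.59, 7.58, 8.28 and 8.19 in the L rats and 7.31, 6.46, 6.46 and 6.47 in the H rats. The BAT levels were 6.79, 6.31, 4.66, 5.27 and 5.55 against 4.47, 3.91, 4.31 and 4.20. The H rats lay close together in BAT and the L rats were spread from 4.66 to 6.79, with L3 the lowest L rat in both depots. The differences were -1.57 and -1.49, and the other probe set gave -1.72 and -1.87, with overlap in BAT. The remaining pair without overlap in both depots were *Mcam*, a cell adhesion molecule of vessel walls, with -0.23 in WAT and -0.79 in BAT, and *Tmem43*, an inner nuclear membrane protein, with -0.22 and -0.72. For all 8 probe sets the limma adjusted p was at least 0.226 in WAT and at least 0.0528 in BAT.

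**Figure D1:**
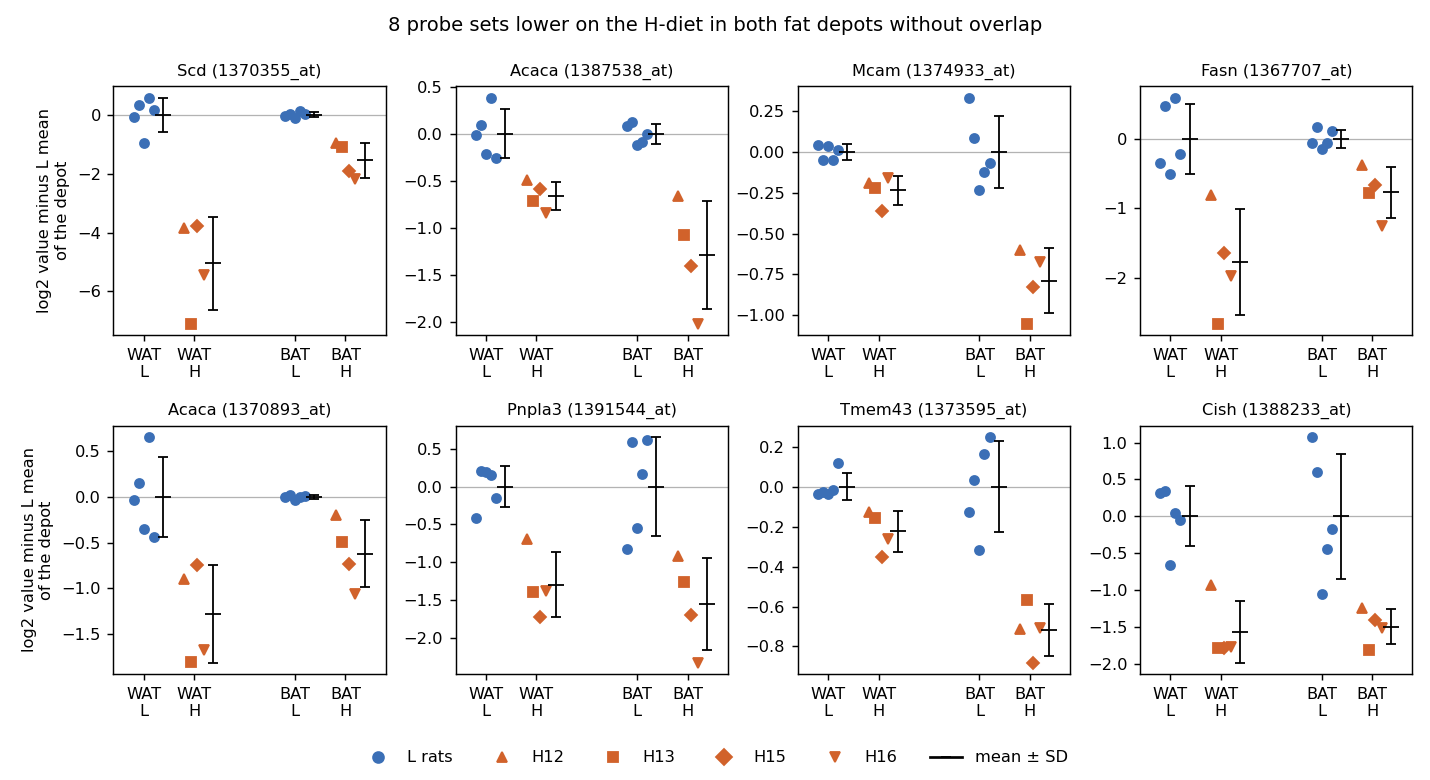
Log2 level of the 8 probe sets that were lower in the H rats without overlap in both depots, minus the mean of the L rats of the same depot. Each point is 1 rat (circles the 5 L rats, other symbols the 4 H rats), bars are the mean and SD of each diet, and each panel has its own axis. The 4 H points lie below the 5 L points in both depots of every panel, at -5.05 on average for *Scd* in WAT.

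Rank products called 15 members lower in both depots (0.393%), 2 higher in both (0.0524%) and 0 in opposite directions. The lower ones, named after their values were seen where they were not already named above, included *Me1*, the NADPH-producing malic enzyme, with -0.92 in WAT and -1.48 in BAT, *Elovl6* with -0.76 and -0.97, and *Rgs3*, a brake on G protein signalling, with -1.23 and -1.36. H12 read 9.92 for *Me1* in WAT, within the L range of 9.46 to 10.36, while the other 3 H rats read 8.75 to 8.84. *Bcl6*, a transcriptional repressor, was one of the 2 called higher, with 1.72 in WAT and 1.12 in BAT. L5 read 10.20 in WAT, among the H rats (8.93 to 10.50), while the other 4 L rats read 7.45 to 8.12.

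The other was *RT1-T24-3*, a class I histocompatibility gene with many close relatives, so that its signal may come from several genes. It had the highest difference of all members in WAT, 1.94, and the second highest in BAT, 2.08. The rats that were high were the same in both depots and came from both diets. In WAT it read 10.14, 7.43, 6.94, 7.79 and 6.65 in L1 to L5 and 9.96, 10.31, 10.76 and 7.87 in the H rats. BAT gave 7.61, 3.99, 4.31, 4.58 and 3.86 against 7.28, 7.65, 8.58 and 4.28. L1 was as high as H12, H13 and H15, and H16 was as low as the other 4 L rats, in both depots. The limma adjusted p was 0.669 in WAT and 0.426 in BAT.

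The de novo fatty acid synthesis genes were lower in both depots. Of its 15 genes 11 were among the members: 10 were lower in WAT, 10 in BAT and 9 in both, where 1056 of all 2660 genes were lower in WAT, 1330 in BAT and 608 in both. Without overlap, 6 were lower in WAT and 5 in BAT, next to 28 and 87 of all 2660 genes. The median difference of the 11 genes was -0.36 in WAT and -0.73 in BAT (medians of all genes 0.02 and -0.00), and in units of each probe set's spread within a diet it was -2.23 and -2.71 SD. Besides the genes above, the citrate carrier *Slc25a1* read -0.36 in WAT (9.86 to 11.07 in BAT of the H rats, against 11.06 to 11.58 in the L rats), *Acly* -0.28 and -0.73, the acetyl-CoA synthetase *Acss2* -0.24 and -0.73, and the lipogenic regulator *Thrsp* -0.23 and -0.16. The 2 exceptions were *Scd2*, with 0.07 in WAT and -0.55 in BAT, and *Srebf1*, the transcription factor that drives these genes, with -0.08 and 0.22. None of the 11 was called by limma in either depot.

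The list stood apart rat by rat as well. The mean of the 11 genes, each centred on its own mean over rats, ran from 0.15 to 0.62 in the L rats and from -0.91 to -0.21 in the H rats in WAT, and from 0.11 to 0.46 against -0.74 to -0.05 in BAT, with no overlap in either. With H13 and H15 left out, 9 of the 11 were lower in WAT and 10 in BAT.

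**Figure D2:**
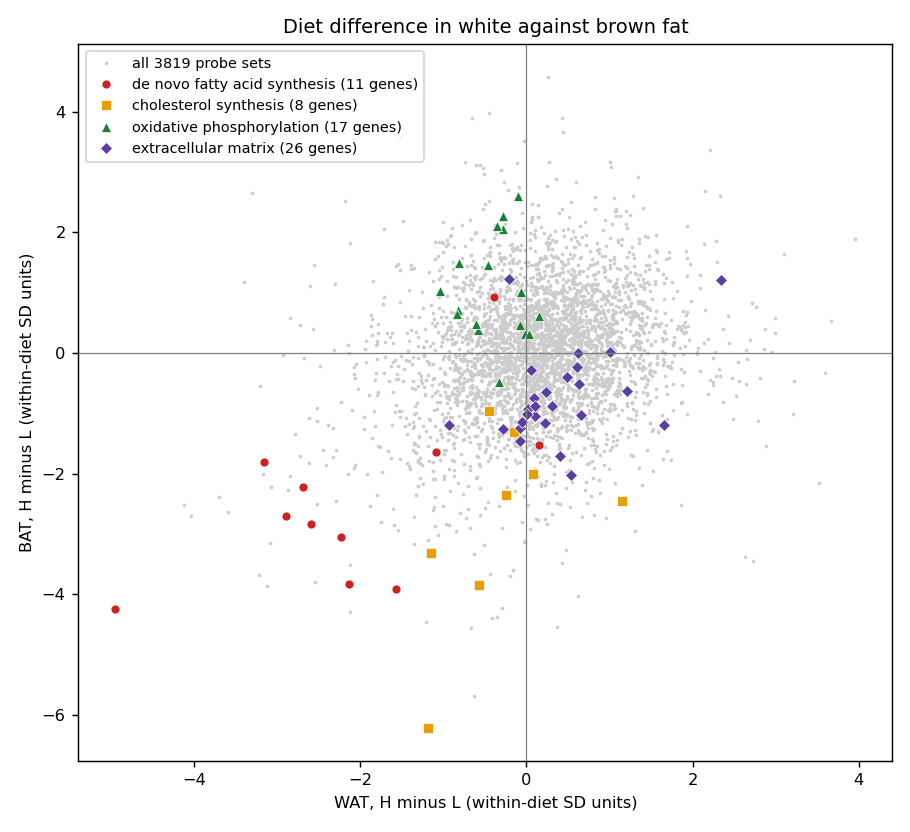
Difference between the diets (H minus L) in WAT on the x axis and in BAT on the y axis, in units of the within-diet SD of each probe set, for all 3819 members (grey) and for the genes of 4 lists (coloured). The fatty acid synthesis genes lie at the lower left, cholesterol synthesis genes low on the BAT axis and around 0 on the WAT axis, oxidative phosphorylation genes above 0 in BAT, and extracellular matrix genes below 0 in BAT.

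Cholesterol synthesis genes were lower in BAT and had values near 0 in WAT. All 8 members of the list of 20 were lower in BAT, 6 of them without overlap, and 6 were lower in WAT, 0 of them without overlap. Of all 2660 genes 1330 were lower in BAT, 87 without overlap, and 1056 in WAT, 28 without overlap. The median difference of the list was -0.66 in BAT and -0.04 in WAT (-2.40 and -0.35 SD). *Cyp51*, the lanosterol demethylase, read 6.10, 6.36, 5.99, 6.45 and 6.22 in BAT of the L rats and 5.19, 5.02, 5.31 and 5.24 in the H rats. It fell by 1.03 (SE 0.11, limma adjusted p = 0.0295). In WAT it read 8.77, 9.13, 8.83, 8.78 and 8.87 against 8.52, 8.53, 8.90 and 8.79, so that the diets overlapped and the difference was -0.19.

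The remaining sterol enzymes were also lower in BAT, *Idi1* (-0.34, against -0.05 in WAT) and *Lss* (-0.65, against -0.03) with overlap. *Dhcr7*, which makes cholesterol in its last step, was among the lowest in BAT with -1.42 (rank 18) and had the opposite sign in WAT, 0.25. In BAT it read 8.46, 8.17, 8.06, 8.69 and 8.65 in the L rats and 7.66, 7.61, 7.02 and 5.67 in the H rats, with H16 far below the others. The differences in BAT and WAT were -0.87 and 0.03 for *Sc5d*, -0.66 and -0.14 for *Nsdhl*, -0.64 and -0.02 for *Fdps* and -0.56 and -0.04 for *Pmvk*, and each was without overlap in BAT. *Insig1* was lower in BAT by -1.21 without overlap (limma adjusted p = 0.0796) and by -0.46 in WAT, where L1 at 12.06 and H12 at 12.14 crossed. In BAT it read 11.49, 12.48, 11.69, 12.13 and 11.95 against 11.27, 10.64, 10.61 and 10.43. All 6 members of the sterol sensing, uptake and efflux list of 15 were lower in BAT and 3 in WAT, next to 1330 and 1056 of all 2660 genes. *Npc2*, a lysosomal cholesterol carrier, was lower without overlap in BAT (-0.33, against 0.12 in WAT). The mean score of the cholesterol genes ran from 0.10 to 0.65 in BAT of the L rats and from -0.79 to -0.12 in the H rats, and overlapped in WAT (-0.16 to 0.14 against -0.12 to 0.09). With H13 and H15 left out, 8 of 8 were lower in BAT and 4 in WAT.

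*Gcat*, a mitochondrial enzyme of threonine and glycine breakdown, was the other call in BAT. It read 8.44, 8.44, 8.02, 7.81 and 8.43 in the L rats and 6.68, 6.96, 6.51 and 6.16 in the H rats, and it fell by 1.65 (SE 0.19, limma adjusted p = 0.0305). In WAT it read 7.80, 8.30, 8.36, 7.76 and 8.17 against 8.56, 7.39, 7.47 and 7.94, with H12 the highest of all rats and H13 the lowest. Both BAT calls depended on single rats: the limma adjusted p was over 0.05 for each of *Cyp51* and *Gcat* without L1, L2, L5, H13 or H15, and reached 0.0951 and 0.137. With the muscle score as a covariate it was 0.139 for both, and with H13 and H15 left out it was 0.179 and 0.177. The differences themselves were -1.02 for *Cyp51* and -1.79 for *Gcat* with the covariate, and -1.01 and -1.81 with those rats left out.

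In BAT, 1 gene of NADPH supply and 3 of glycolysis and pyruvate use were lower without overlap between the diets, and in WAT 0 were. *Idh1*, the cytosolic NADPH-producing isocitrate dehydrogenase, was lower in BAT without overlap (11.79 to 11.97 in the L rats, 11.39 to 11.52 in the H rats, difference -0.45) and differed by 0.05 in WAT. It was 1 of 4 lower genes in BAT among the 5 members of the NADPH list, next to 1330 of all 2660 genes. *Taldo1* of the pentose phosphate pathway read -0.26 in WAT and -0.66 in BAT with overlap in both. In the list of glycolysis and pyruvate use, 6 of 13 members were lower in BAT, next to 1330 of all 2660 genes, 87 of them without overlap. The list median was 0.01. Without overlap were 3 of the 6: *Pc*, the pyruvate carboxylase, with -0.73 (-0.43 in WAT), *Pdha1*, a subunit of pyruvate dehydrogenase, with -0.33 (-0.21 in WAT), and *Gpi*.

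Opposite responses were tested as the difference between the depots within each rat. On values divided by each probe set's SD within a diet, which puts both depots on a common scale, limma called 66 members (1.73%), 43 with WAT above BAT and 23 with WAT below. Of these, 53 had opposite signs in the depots, and for 11 the diets overlapped in each depot alone. On the log2 values as deposited it called 0 (0.0%, smallest adjusted p = 0.0939, with 416 members, 10.9%, at an unadjusted p under 0.05), and with 1 common scale per depot also 0. The test in SD units also made calls on data simulated with no diet effect. The genes below are therefore given by their values.

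*Pxdn*, a peroxidase that cross-links collagen IV of basement membranes, was 1 of the 2 members (0.0524%) without overlap in opposite directions. Without overlap were 2.91% of members in WAT and 5.53% in BAT. Whether 2 is more than these shares give was not tested. In WAT *Pxdn* read 11.49, 11.51, 11.20, 11.21 and 11.59 in the L rats and 11.90, 11.78, 11.68 and 12.09 in the H rats. In BAT it read 9.42, 9.55, 9.50, 9.69 and 9.62 against 9.22, 8.86, 8.66 and 9.05. Every H rat was thus above every L rat in WAT and below every L rat in BAT, by 0.46 and -0.61 on average. The depot difference was 6.17 SD (limma adjusted p = 0.000247) and 1.07 on the log2 scale (limma adjusted p = 0.0939). Another probe set, 1375862_at, gave 0.37 and -0.54, without overlap in BAT. The other member, 1397769_at, has no gene symbol and ran the other way, -0.21 in WAT and 0.88 in BAT. It read 6.78 to 6.91 in WAT of the H rats and 6.99 to 7.11 in the L rats. In BAT it read 4.04 to 5.03 against 3.05 to 3.78, near the 3.3 limit.

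Besides *Cyp51*, *Idh1* and *Gcat*, given above, the genes with the smallest p of the depot difference in the direction of *Pxdn* were *Akr1c14*, a steroid-reducing dehydrogenase, with 0.55 in WAT and -0.46 in BAT, the ubiquitin ligase *Mycbp2* with 0.29 and -0.31, *Glce*, an epimerase of heparan sulfate synthesis, with 0.09 and -0.51, and *Serpinf1*, a secreted factor of adipocytes and fibroblasts, with 0.28 and -0.65. *Akr1c14* was lower without overlap in BAT (5.51 to 5.85 against 6.03 to 6.26), and in WAT only L1, at 8.91, reached the H rats (8.84 to 9.15). Another probe set of *Mycbp2*, 1390423_at, gave 0.26 in WAT and -0.06 in BAT, with overlap in BAT. The interferon regulator *Irf1* belonged here too, with 0.37, without overlap, in WAT and -0.34 in BAT. In the reverse direction, *Cachd1* read -0.61 in WAT, without overlap, and 0.68 in BAT, where 4 of the L rats (6.16 to 6.61) and the H rats (6.54 to 6.89) overlapped and L4 stood alone at 4.57. The coagulation inhibitor *Tfpi* read -0.28 and 0.27, with BAT values of 3.87 to 4.58, close to the floor. *Pex19*, a peroxisome assembly factor, read -0.70 and 0.20.

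**Figure D3:**
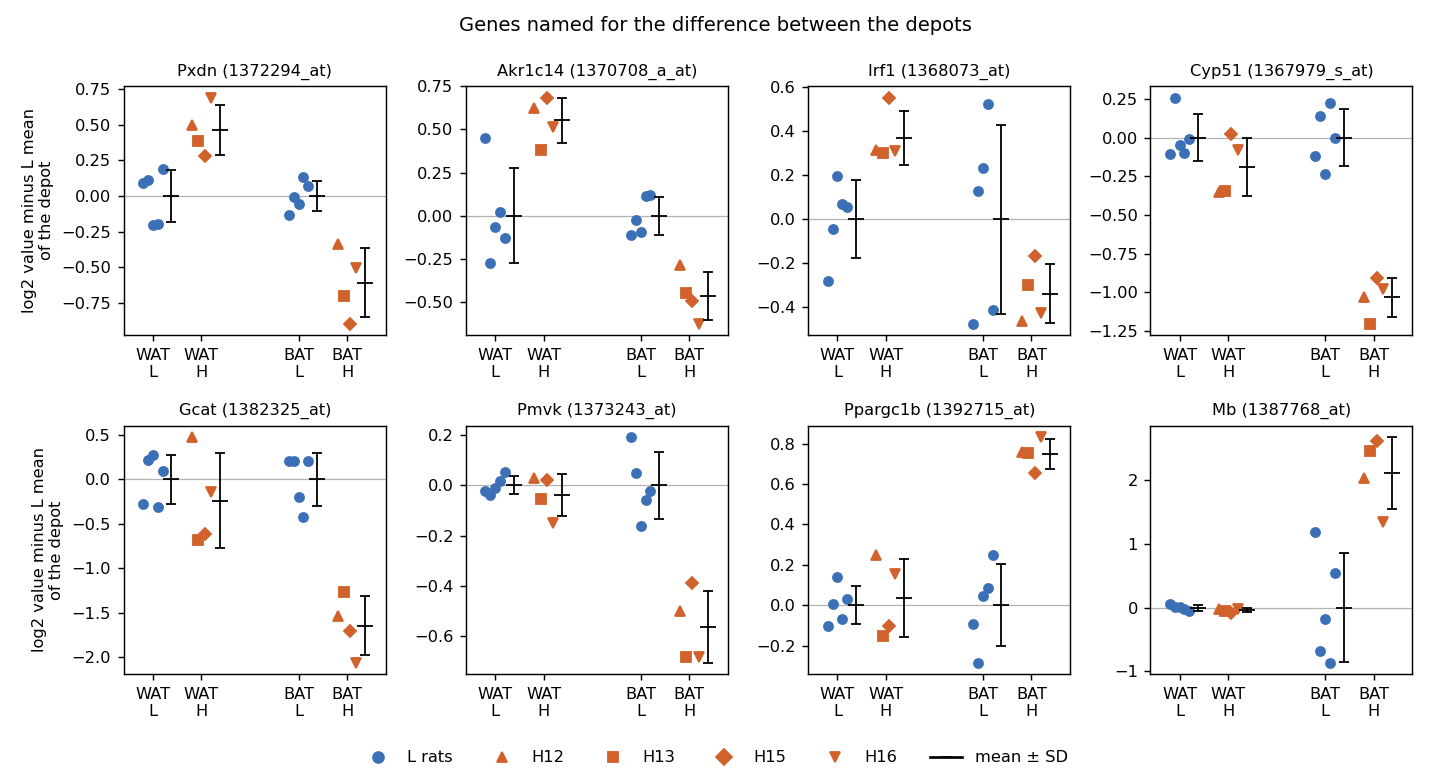
Log2 level of 8 genes named for the difference between the depots, minus the mean of the L rats of the same depot. Each point is 1 rat (circles the 5 L rats, other symbols the 4 H rats) and bars are the mean and SD of each diet. *Pxdn* is higher in WAT (0.46) and lower in BAT (-0.61) of the H rats without overlap, and *Cyp51*, *Gcat*, *Pmvk*, *Ppargc1b* and *Mb* overlap in WAT and do not overlap in BAT.

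A further set was higher in BAT and near 0 in WAT. *Ppargc1b*, a coactivator of mitochondrial genes, read 8.89, 8.70, 9.03, 9.07 and 9.23 in BAT of the L rats and 9.74, 9.74, 9.64 and 9.82 in the H rats. All 4 H rats lay close together and above every L rat, H12 and H16 included, with a difference of 0.75 (SE 0.11, limma adjusted p = 0.0528) against 0.04 in WAT. *Mb*, the oxygen store myoglobin, had the highest difference of all members in BAT, 2.11, against -0.04 in WAT. It read 5.23, 3.37, 3.86, 3.17 and 4.58 in the L rats and 6.07, 6.50, 6.65 and 5.39 in the H rats. *Mb* is also a muscle gene and is itself part of the score of 11 muscle markers. That score was -0.48 in H12 and -0.59 in H16, next to -0.86 to -0.58 in the L rats and 1.81 and 2.85 in H13 and H15. *Mb* was above every L rat in all 4 H rats. The part of muscle RNA in its values was not tested. The carbonic anhydrase *Car2* read 0.82 in BAT and 0.18 in WAT, the zinc finger gene *Zfp715* 0.66 and -0.05, and *Auh*, an enzyme of leucine breakdown, 0.40 and -0.06, each without overlap in BAT.

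Genes of the respiratory chain and of fatty acid oxidation were slightly higher in BAT. Of 17 oxidative phosphorylation genes 16 were higher in BAT, 5 without overlap, and 2 were higher in WAT. Of all 2660 genes 1330 were higher in BAT, 73 without overlap, and 1604 in WAT. In the list, 14 genes had the pattern of lower in WAT and higher in BAT, which 448 of all 2660 genes had. The differences were small: *Ndufv2* read 0.32, *Cox5b* 0.21, *Atp5po* 0.20, *Sdhb* 0.20 and *Uqcrfs1* 0.16 in BAT, and from -0.08 to -0.02 in WAT. The median of the list was 0.08 in BAT and -0.05 in WAT. *Ndufa11* of complex I and *Mrpl12* of the mitochondrial ribosome, named for their depot difference, read 0.29 and 0.14 in BAT and -0.13 and -0.21 in WAT. Of 17 mitochondrial fatty acid oxidation genes 14 were higher in BAT, 4 without overlap (*Acadvl* 0.22, *Etfb* 0.24, *Etfa* 0.20 and *Echs1* 0.20), and 6 were higher in WAT, with 9 lower in WAT and higher in BAT. *Eci1*, the enoyl-CoA isomerase, had the lowest WAT difference of the list, -0.47, against 0.24 in BAT. No gene of either list was called by limma. After each array was centred on its median, 0 of the 17 fatty acid oxidation genes and 1 of the 17 oxidative phosphorylation genes were without overlap in BAT, while 16 of each list were still higher there.

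On the deposited values the BAT side of that pattern was present in each H rat and the WAT side was not. The mean score of the oxidative phosphorylation genes in BAT ran from -0.09 to 0.00 in the L rats and from 0.02 to 0.09 in the H rats. In WAT it was -0.08 to 0.18 in the L rats and 0.21, -0.16, -0.15 and -0.01 in H12, H13, H15 and H16. The fatty acid oxidation score in BAT ran from -0.16 to -0.00 against 0.01 to 0.17, and in WAT it was 0.28, -0.24, -0.18 and 0.04 in the same H rats. H13 and H15, the rats with muscle RNA in their brown fat, thus had the lowest scores of the H rats in WAT. With both left out, 13 of the 17 oxidative phosphorylation genes and 11 of the 17 fatty acid oxidation genes were higher in both depots, and 2 of 17 were lower in WAT in each list. The part of muscle RNA in the BAT values was not tested.

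**Figure D4:**
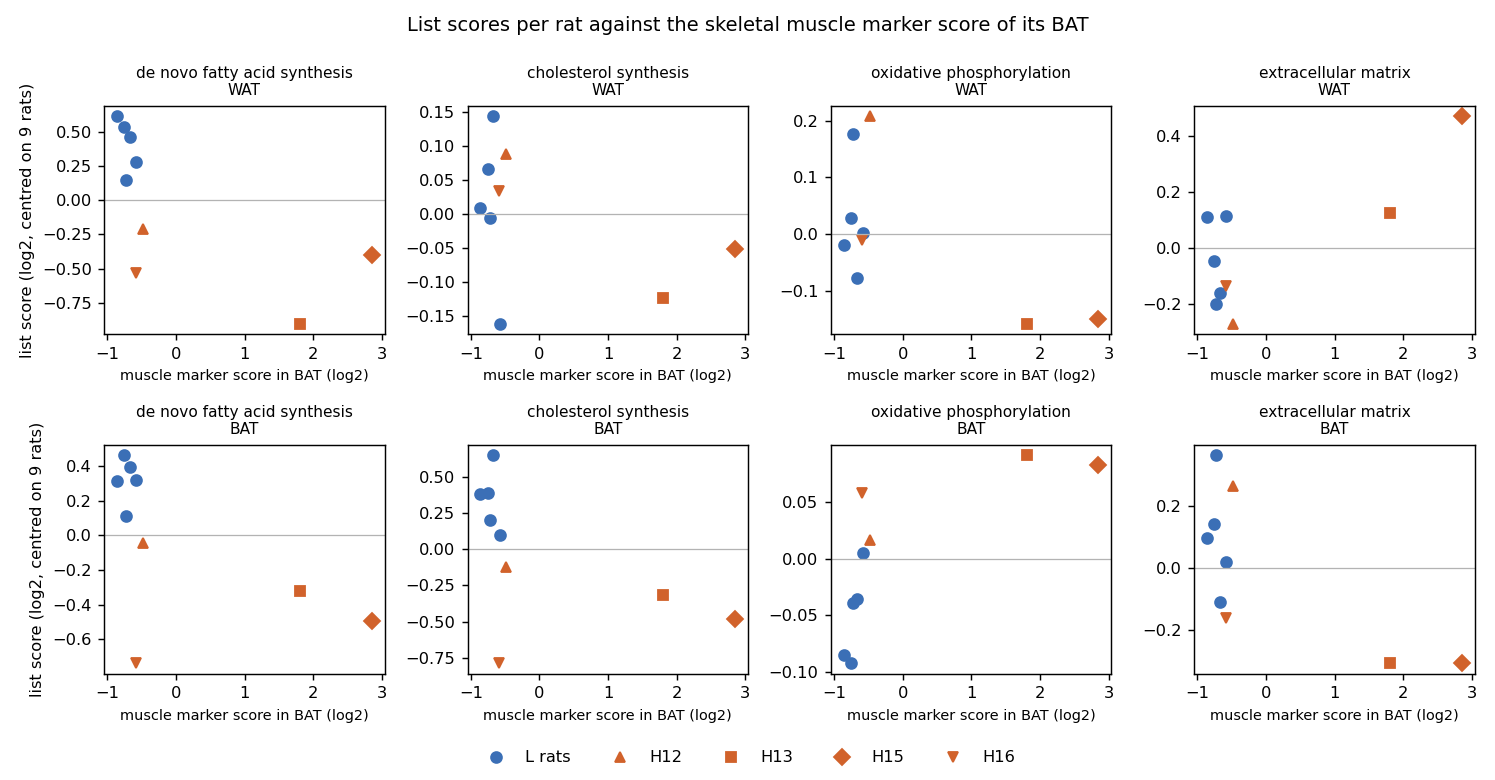
Mean log2 level of 4 gene lists in each rat, centred on the 9 rats (y axis; WAT in the upper row, BAT in the lower), against the score of the 11 skeletal muscle markers in BAT of the same rat (x axis). H13 and H15 lie to the right at 1.81 and 2.85, all other rats at -0.48 or below, and the fatty acid synthesis scores of H12 and H16 lie below those of the L rats in both depots.

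Extracellular matrix genes were lower in BAT. Of 26 members of the list of 29, 23 were lower in BAT and 6 in WAT, next to 1330 and 1056 of all 2660 genes. In the list, 18 were higher in WAT and lower in BAT, a pattern of 722 of all 2660 genes. None was without overlap in BAT, and *Sparc* was higher without overlap in WAT (0.23, against 0.20 in BAT). *Mmp2*, a collagen-degrading protease, read 0.30 in WAT and -0.48 in BAT, and *Col4a1*, a basement membrane collagen, 0.07 and -0.31. The median was -0.23 in BAT and 0.06 in WAT. The pattern varied between rats: the score was -0.20 to 0.11 in WAT of the L rats and -0.27, 0.12, 0.47 and -0.14 in H12, H13, H15 and H16, and in BAT -0.11 to 0.36 against 0.26, -0.31, -0.31 and -0.16. With H13 and H15 left out, 18 of the 26 genes were lower in WAT and 18 in BAT, and 12 were lower in both, with medians of -0.17 in WAT and -0.08 in BAT. Of all members, 53.5% were then higher in WAT and 44.2% in BAT, with medians of 0.01 and -0.03. With the muscle score as a covariate, 16 of 26 were lower in BAT, with a median of -0.08. In that setting 42.8% of all members were higher in BAT, with a median of -0.04, so the list was near the share of all members. Of 8 smooth muscle markers 6 were members, all lower in BAT and 3 of them in WAT, next to 1330 and 1056 of all 2660 genes. *Lmod1*, at 1 value in WAT and so not a member, read 4.44 to 5.90 in BAT of the L rats and 5.62 to 6.16 in the H rats. The mean score of all 8 in BAT overlapped between the diets (-0.25 to 0.48 against -0.31 to -0.05). *Myh11*, the smooth muscle myosin, read -0.93 in BAT and -0.18 in WAT, and *Synpo2* -0.67 and -0.02, both without overlap in BAT. Of 4 fibroblast markers all were lower in BAT and 1 in WAT, but with the muscle score as a covariate 2 were lower in BAT, and with H13 and H15 left out 1 was lower in BAT and 2 in WAT. The part of these cells in the matrix result was not tested.

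Triacylglycerol synthesis genes were lower in WAT and of mixed sign in BAT. All 8 members of its list were lower in WAT and 5 in BAT, next to 1056 and 1330 of all 2660 genes. None of the 8 was without overlap. *Agpat3*, which acylates lysophosphatidic acid, read -0.61 in WAT and -0.43 in BAT, while *Gpd1*, the maker of glycerol phosphate, read -0.37 and 0.02 and *Dgat1*, the last step to triacylglycerol, -0.32 and 0.14. With H13 and H15 left out, 6 of the 8 were lower in WAT. Among lipid droplet genes, *Fitm2* and *Plin4* were higher without overlap in BAT (0.19 and 0.28) and read -0.20 and 0.02 in WAT, while *Pnpla3* and 1 probe set of *Plin2* (-0.45, against 0.00 in WAT), a droplet coat protein, were lower without overlap in BAT. After centring, 2 of the list's 8 members were lower without overlap in BAT and 0 were higher. Immediate early genes, which respond to handling and stress within minutes, were lower in WAT in all 16 members and in BAT in 8, with median -0.21 and -0.04, none without overlap, and 7 of 16 were lower in WAT with H13 and H15 left out.

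Differences in the hormones of the fat cell were small or within the spread between rats. *Lep*, which encodes leptin, read 9.38, 10.17, 9.67, 9.13 and 10.30 in WAT of the L rats and 10.92, 10.26, 9.33 and 10.07 in the H rats. In BAT it read 4.98, 4.90, 4.55, 5.52 and 4.63 against 4.04, 4.37, 3.46 and 4.56. The means differed by 0.42 in WAT and by -0.80 in BAT, in both cases with overlap (limma adjusted p = 0.833 and 0.256). *Adipoq* was lower in WAT without overlap by a small margin, 13.30 to 13.39 in the L rats and 13.20 to 13.23 in the H rats (-0.13), and overlapped in BAT (-0.19). Of 20 genes of brown fat thermogenesis 4 varied in both depots, and *Ppargc1b* alone was without overlap in BAT.

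Among the members that are markers of cell types other than the fat cell, the genes without overlap between the diets were *Myh11*, *Synpo2*, *Mb* and 1 of 7 endothelial genes, all in BAT. No single blood marker among the members was without overlap. The mean score of 4 blood markers in BAT was, at -0.22 to 0.04 in the L rats and 0.07 to 0.31 in the H rats. A score of 4 blood markers in WAT overlapped (-0.39 to 0.22 against -0.62 to 1.60). Of 8 macrophage markers 6 were higher in both depots, next to 882 of all 2660 genes, and none of the 8 was without overlap. *Cd163*, a macrophage marker at the floor in BAT and so not a member, was without overlap in WAT (9.19 to 9.38 in the L rats, 9.42 to 9.75 in the H rats). *Cd68* was the highest of them, with 0.50 in WAT and 0.74 in BAT. No lymphocyte marker of 14 was among the members. Of 15 interferon response genes 8 were higher in both depots, as were 882 of all 2660 genes, and 1 (*Irf1*, above) was without overlap in WAT. With H13 and H15 left out, 2 of the 15 were higher in both depots and 11 were lower in WAT.

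**Figure D5:**
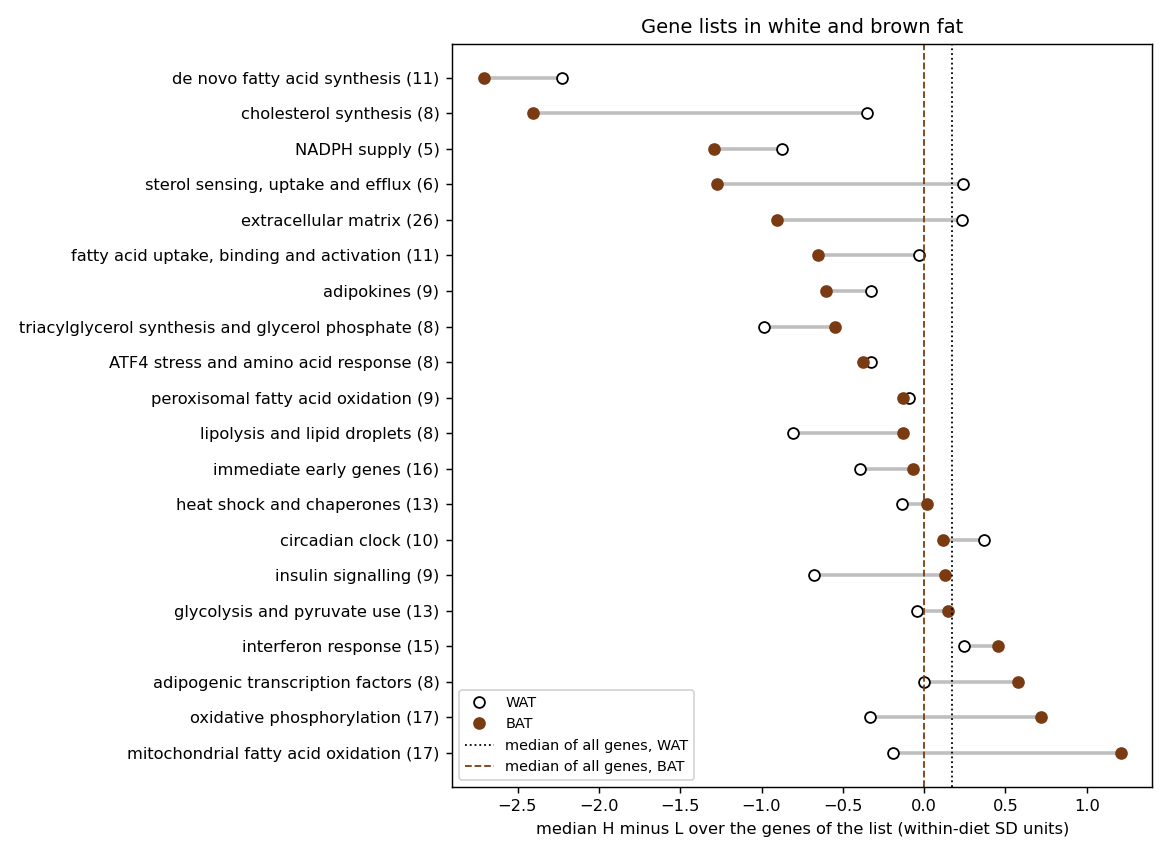
Median difference between the diets (H minus L) of each gene list in WAT (open) and in BAT (filled), in units of the within-diet SD of each probe set, with the medians of all 2660 genes as vertical lines. Lists with at least 5 members are shown, with their number of genes. De novo fatty acid synthesis is the lowest of them in both depots (-2.23 and -2.71 SD), cholesterol synthesis is low in BAT (-2.40 SD) and near 0 in WAT (-0.35 SD), and mitochondrial fatty acid oxidation is the highest shown in BAT (1.21 SD).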

How the data were processed

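RNA of white fat (WAT), brown fat (BAT) and liver had been hybridised to Affymetrix whole-genome rat arrays, 1 array per tissue and rat, of which the 18 fat arrays were used here. The deposited values are log2 expression values that the authors computed for each tissue separately, with qFARMS in WAT and GCRMA in BAT. qFARMS gives most probe sets 1 constant value, and GCRMA leaves undetected ones at a floor of 2.29, so the levels of the depots are not on a common scale. Gene symbols came from the platform annotation, updated by gene ID to RefSeq (GRCr8). Of 3819 members, 3071 had 1 symbol, 125 several and 623 none, and 3066 of the symbols matched RefSeq. The diets and rat numbers came from the labels, and within a depot each sample came from a separate rat, both depots being taken from the same 9 rats.

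H minus L was tested in each depot with limma 3.58.1 (R 4.3.3) on the members, with Benjamini-Hochberg adjustment over all of them. limma was the main test in place of the authors' rank products, which were rerun with 100 permutations as an alternative, since rank products assume the same spread for all probe sets. The depot difference was fitted within rats, after dividing by each probe set's moderated within-diet SD. The pairing rests on the rat numbers in the labels. Deviations from the diet means correlated between the depots of the same rat at 0.0949 (H12) to 0.347 (L2), and 8 of 9 rats correlated best with their own. Gene lists were described with 1 probe set per gene, the one with the highest BAT mean, without tests. Genes were named by rule: those without overlap in both depots, those with the smallest p of the depot difference, up to 5 per list, and a few fixed genes. Genes outside the rule were named after their values were seen. The members, lists and rule were chosen with earlier results of these data known.

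Alternatives were another threshold, all probe sets, a stricter filter (WAT range over 0.1, BAT over 5.0), arrays centred on their median, quantile normalization, trended and robust variance, array weights, the muscle score as covariate, other scales of the depot difference, no pairing, each rat left out and, added after the data were seen, H13 and H15 left out together and a test on the mean of both depots. Scripts were tested on simulated data. The number of arrays limits the precision. Python 3.11.15, numpy 2.4.6, pandas 2.3.3 and matplotlib 3.10.9 were used. Liver arrays and the rats on the intermediate diet were not used here.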

Additional observations from a re-analysis of the deposited data

Results flagged for a closer look

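Single rats far from the others of their diet were looked for in 316 groups of 4 or 5 values of named genes, with Dixon's test, by which chance marks about 1 in 20 groups, and 23 groups (7.28%) held one. In 8 of them the rat was H12. In WAT it was above the other 3 H rats for *Me1* (9.92), *Cish* (7.31 at 1388233_at and 8.03 at 1378586_at), *Dgat1* (10.97), *Taldo1* (10.97) and *Ndufv2* (10.66), and in BAT for *Acly* (12.77) and *Nsdhl* (8.58). The other H rats marked were H15 for *Irf1* in WAT (9.55) and H16 for *Sparc* in BAT (12.21), both above the rest. Among the L rats, L5 stood above the others in WAT for *Bcl6* (10.20) and *Tmem43* (12.17), L3 for *Eci1* (11.06) and L2 for *Cyp51* (9.13), while L1 was below for *Agpat3* (9.57) and *Nsdhl* (8.34) and L4 for *Mycbp2* (10.96). In BAT of the L rats, L1 was above for *RT1-T24-3* (7.61), and L4 was below for *Cachd1* (4.57) and *Acadvl* (12.08), L5 for *Col4a1* (10.72), L3 for *Tfpi* (3.87) and L2 for 1397769_at (3.05).

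Named genes whose diet difference differed between WAT and BAT by the test in SD units (limma adjusted p under 0.05, with the limit on that test given above) are listed by the size of WAT minus BAT. The difference was positive for *Pxdn* (6.17), *Akr1c14* (6.02), *Mycbp2* (5.67), *Gcat* (5.04), *Cyp51* (5.03), *Idh1* (4.91), *Glce* (4.65), *Serpinf1* (4.22), *Myh11* (3.89), *Irf1* (3.58), *Synpo2* (3.49) and *Pmvk* (3.27). It was negative for 1397769_at (-5.96), *Cachd1* (-4.57), *Zfp715* (-4.55), *Auh* (-4.43), *Ppargc1b* (-4.31), *Tfpi* (-4.02), *Mb* (-3.90), *Mrpl12* (-3.72), *Ndufa11* (-3.68), *Car2* (-3.46) and *Pex19* (-3.20). On the log2 values as deposited none of these passed.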

How the results depend on the processing

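The counts of calls depended on the settings, and so did the directions of several gene lists in WAT, given above. Calls in WAT were 0, and 17 with all probe sets fitted (0 of them with a range over 0.01), 1 with H13 and H15 left out and 34 by rank products. Calls in BAT were 2, and 0 at an adjusted p under 0.01, with all probe sets, with the muscle score as covariate or with H13 and H15 left out, 11 with the stricter filter, 20 after centring, 10 after quantile normalization, 13 with trended and robust variance, 55 with array weights, 93 by rank products, and 0 to 35 with 1 rat left out (35 without H12). Calls shared by both depots were 0, and 17 by rank products. Members without overlap in both depots in the same direction were 8, and 16 after centring, 14 after quantile normalization, 50 with H13 and H15 left out and 9 to 44 with 1 rat left out (44 without H12), where fewer rats make separation easier by construction. Those in opposite directions were 2, and 1 with the stricter filter, 4 after quantile normalization, 25 with H13 and H15 left out and 2 to 19 with 1 rat left out (19 without H12). Depot difference calls were 66, and 17 at an adjusted p under 0.01, 35 with all probe sets, 254 with array weights, 39 with the muscle score as covariate, 0 on deposited log2 values, 0 with 1 scale per depot and 36 to 221 with 1 rat left out (221 without H12, 129 without L5). Without the pairing by rat (no replicate block) they were 69. The test on the mean of both depots also uses the pairing, and the counts of calls within each depot do not. Calls on the mean of both depots were 1, and 0 at an adjusted p under 0.01, 8 with all probe sets, 4 with array weights and 0 to 21 with 1 rat left out. The share of members with the same direction in both depots stayed between 51.7% and 58.8% with 1 rat left out. Over the genes named, 2428 of 2441 alternative values of H minus L stayed within 1 within-diet SD of the value reported and 13 moved further, with 0 changes of direction among those called or without overlap. For genes without overlap, leaving rats out could not change the direction, so those settings do not test it. Of 481 alternative depot differences of named genes, 337 passed the threshold and 144 did not. Of 1120 alternative list medians, 48 moved by more than the spread between rats. The causes were not tested. The floor limits how far a BAT level can be lower, and probe sets that qFARMS gives 1 value in WAT were not compared.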
